A study of Mus musculus with 19 samples.

Results

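The interferon and antigen presentation genes described here are 47 mouse genes listed by symbol, of which 46 were found among the 22958 genes of the expression table and 1, Ifi27, was not. They comprise the receptors and transcription factors of interferon signalling, sensors of foreign RNA, the proteins that interferons induce, and the parts of the MHC class I route. RNA was sequenced from 3 libraries of glia and 4 libraries of glial progenitor cells (GPC), both derived from mouse embryonic stem cells. In the GPC, binding of the transcription factors SOX3 (2 samples), SOX9 (3 samples) and NFIA (2 samples) was mapped by chromatin immunoprecipitation (ChIP-seq), with 1 peak list for each factor. The GPC came from stem cells driven towards neural fate with 0.1 µM retinoic acid. Cells carrying the surface antigen A2B5 were taken from these cultures by magnetic sorting on day 8 and expanded in EGF and FGF2 at 10 ng/ml. For glia the labels repeat this protocol. The step that turned progenitors into glia, and the strain of the stem cells, are not stated there. No allele or interferon treatment is named for either group.

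Interferons are secreted proteins that warn cells of infection. Type I interferons act through the receptor subunits encoded by Ifnar1 and Ifnar2, and interferon gamma acts through those encoded by Ifngr1 and Ifngr2. Kinases on these receptors activate STAT proteins, and a complex that holds STAT2 and IRF9 binds the interferon-stimulated response element (ISRE) of its target genes. Many of the induced proteins block viruses, and others cut, transport and load peptides onto MHC class I molecules, which show them to T cells. In the brain, astrocytes and microglia respond to interferons, while neural cells at rest are known for little MHC class I.

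Reads counted in genes numbered 6897294 to 17369367 per glia library and 12836998 to 22439837 per GPC library. No label says whether replicates were separate cultures, so the p-values cover only the spread between these libraries, which may be technical. The labels were checked against cell type markers: 9 of 12 astrocyte markers and 9 of 12 oligodendrocyte markers were higher in glia, while 3 of each list were lower (Aldh1l1, Slc1a3 and Fgfr3, and the early lineage genes Olig1, Olig2 and Cspg4). Of 8 neural progenitor markers, Nes, Sox3 and Fabp7 were lower in glia, Sox2, Prom1 and Pax6 were higher, and Sox1 and Hes5 were not called, so this list did not set GPC apart as a whole. GPC replicate 3 stood apart from the other GPC libraries. A chi-square comparison of its counts with theirs gave 25.4 to 29.3 per gene, against 2.01 to 3.47 among the others. Its RNA for Gfap, the astrocyte filament, was 15.4 RPKM, against 5.64 to 6.52 RPKM in the other GPC, and its RNA for Mbp, a myelin protein, was 15.9 RPKM, against 6.03 to 6.94 RPKM. Of the 38 interferon and antigen presentation genes that were tested, 25 (65.8%) were lowest among the GPC libraries in replicate 3 and 5 (13.2%) were highest there, against 39.3% and 34.5% of all tested genes. Results whose call or group overlap turns on this library are therefore given with and without it.

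In glia a set of interferon-induced genes and the class I genes B2m and H2-D1 had more RNA than in GPC, while Ifitm2, Ifitm3, Gbp3 and Parp14 had less. Ifit3 and Gbp2 stood out in glia, at 25.4 and 26.2 times their GPC level. For Ifit3 the size depends on single GPC libraries, since it had 14 GPC reads in all. Its log2 change was 4.67 with all libraries and 5.30 without GPC replicate 2, which held 7 of those reads. Without GPC replicate 3 it was 4.27. B2m, Tapbp, Irf9, Xaf1 and Nlrc5 were also higher in glia, and both type I receptor subunits were not called. Of the 46 genes, 38 had enough reads for a test (edgeR's quasi-likelihood test, glia over GPC, two-sided, called at a Benjamini-Hochberg adjusted p below 0.05 over 13588 genes). Of these, 17 (44.7%) were higher in glia, 7 (18.4%) were lower and 14 were not called. Over all tested genes 35.2% were higher and 35.2% were lower. The share called in either direction was 63.2% of the 38 and 70.4% of all tested genes, so change as such was no more common than in the background. With the added demand of a change of at least 2-fold, 13 of the 38 (34.2%) were higher and 3 (7.89%) were lower, against 16.5% and 9.24% of all tested genes. Of the 13, Ifit3, Oasl2, Usp18, Mx2, Cxcl10 and Xaf1 had few GPC reads and entered the test through their glia reads. The share of 34.2% rests in part on these genes. With a minimum of 50 counts in 3 libraries they were no longer tested, and 11 of the 17 higher genes were still tested and called. The shares describe the group and were not tested against the background. Glia and GPC values did not overlap in 17 genes with glia above (44.7%) and in 4 with glia below (10.5%). Over all tested genes those shares were 36.9% and 32.1%, together 69.1%. The median log2 change of the 38 was 0.19, and that of all tested genes was 0.00. Without GPC replicate 3 the counts were 17 higher and 11 lower. The count of lower genes was 3 without glia replicate 2 and 4 without glia replicate 1, glia replicate 3, GPC replicate 2 or GPC replicate 4.

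**Figure D1:**
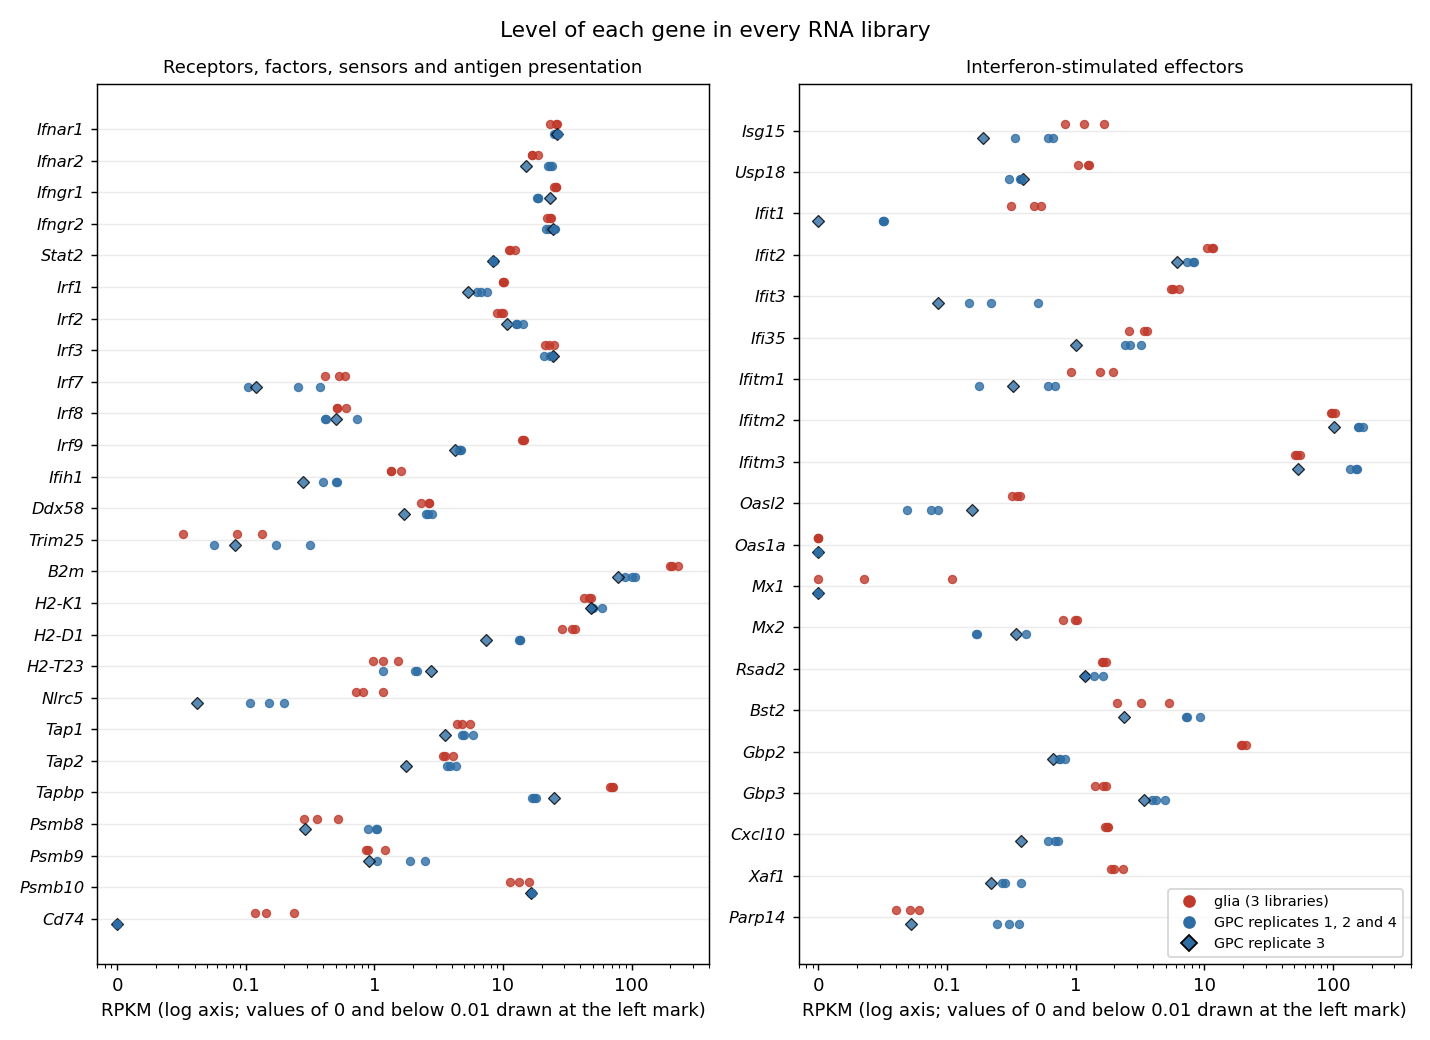
Level of each of the 46 genes in every RNA library, in RPKM on a log axis, with 3 glia libraries drawn above 4 GPC libraries in each row and GPC replicate 3 as a diamond. Gbp2 lies at 19.2 to 20.9 RPKM in glia and 0.664 to 0.826 RPKM in GPC, while Ifnar1 lies between 23.4 and 26.8 RPKM in every library.

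The group spans a wide range of RPKM (reads scaled to gene model length and library reads, so genes can be ranked per length). By mean RPKM over the 7 libraries, the 8 highest were B2m, Ifitm2, Ifitm3, H2-K1, Tapbp, Ifnar1, Ifngr2 and Irf3. At the other end, 9 genes stayed under 1 RPKM in every library. Oas1a, a synthetase that activates RNA decay, had no read in any library. In bulk RNA a smaller share of expressing cells and less RNA per cell cannot be told apart.

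The promoters below show where the core letters of the ISRE stand in some of these genes. The sequences are RefSeq windows of build GRCm38.p6 that end 1 base before the annotated start. They are those of Gbp2 and Ifit3, which had the largest changes in the group, of B2m, which had the highest level, and of Gbp3 and Ifitm2, which were lower in glia yet hold the same letters. Each is written 5′ to 3′ on the gene's strand, with the ISRE core in capitals.
Gbp2: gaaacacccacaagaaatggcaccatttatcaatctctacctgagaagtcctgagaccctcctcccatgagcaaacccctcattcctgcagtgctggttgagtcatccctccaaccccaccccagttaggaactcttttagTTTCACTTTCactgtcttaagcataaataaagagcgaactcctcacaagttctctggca
Ifit3: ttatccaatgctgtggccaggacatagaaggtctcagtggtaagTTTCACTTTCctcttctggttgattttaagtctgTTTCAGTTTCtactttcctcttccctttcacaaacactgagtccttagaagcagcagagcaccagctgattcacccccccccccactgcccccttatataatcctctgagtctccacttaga
B2m: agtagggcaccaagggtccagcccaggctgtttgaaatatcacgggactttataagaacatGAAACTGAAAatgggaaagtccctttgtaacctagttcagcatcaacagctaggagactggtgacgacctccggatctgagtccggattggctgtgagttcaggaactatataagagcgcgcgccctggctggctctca
Gbp3: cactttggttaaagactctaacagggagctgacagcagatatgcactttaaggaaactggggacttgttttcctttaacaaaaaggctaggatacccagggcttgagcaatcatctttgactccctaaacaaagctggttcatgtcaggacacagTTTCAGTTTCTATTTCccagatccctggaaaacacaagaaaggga
Ifitm2: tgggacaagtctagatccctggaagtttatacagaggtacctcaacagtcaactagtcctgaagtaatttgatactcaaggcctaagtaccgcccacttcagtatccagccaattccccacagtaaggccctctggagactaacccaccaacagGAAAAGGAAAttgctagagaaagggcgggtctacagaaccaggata
The windows are chr3:142620463-142620662 (plus strand) for Gbp2, chr19:34583329-34583528 (plus) for Ifit3, chr2:122147487-122147686 (plus) for B2m, chr3:142559844-142560043 (plus) for Gbp3 and chr7:140955962-140956161 (minus) for Ifitm2. The core starts 59 bases before the start of Gbp2, 139 before that of B2m and 46 before that of Ifitm2. Ifit3 holds it at 156 and 122 bases before its start, and in Gbp3 copies at 45 and 39 bases overlap. In Gbp2, Ifit3 and Gbp3 the letters stand on the strand opposite to the gene.

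The search used GAAANNGAAA on both strands of windows running from 250 bases before to 50 bases after each RefSeq start. It was met in 3.44% of all 32851 windows and in 17 of the 45 windows (37.8%) of the 39 group members that had one, while 7 members had no window. By gene, it was present in 6 of 14 that were higher in glia, 5 of 6 that were lower, 3 of 13 that were not called and 3 of 6 that were not tested. The letters were thus not limited to genes that were higher in glia. A second search, for the STAT site TTCNNNGAA of interferon gamma signalling, was met in 8.30% of all windows and in 11 of the 45 (24.4%), in 2 of 14 genes higher in glia, 2 of 6 lower, 6 of 13 not called and 1 of 6 not tested. Such a match describes the sequence and is not a measured binding site.

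Receptor RNA was present at similar levels in both groups, and 1 subunit of 4, Ifngr1, was higher in glia. Ifnar1, a subunit of the type I interferon receptor, had 25.8, 26.2 and 23.4 RPKM in glia, against 25.1, 26.0, 26.4 and 26.8 RPKM in GPC. Ifngr2, the signalling subunit of the interferon gamma receptor, had 23.7, 21.9 and 23.1 RPKM in glia, against 21.6, 22.9, 24.3 and 25.5 RPKM in GPC. The groups overlapped for both genes, and their log2 changes were -0.09 ± 0.06 (SE, adjusted p = 0.246) and -0.07 ± 0.08 (adjusted p = 0.451). Ifngr1, the ligand-binding subunit of the gamma receptor, had 25.7, 25.7 and 25.1 RPKM in glia, against 18.4, 18.8, 23.1 and 18.8 RPKM in GPC. All glia libraries stood above all GPC libraries, of which replicate 3 came nearest, and the log2 change was 0.33 ± 0.09 (adjusted p = 0.01), or 0.42 without that replicate. Ifnar2, the other type I subunit, was at 16.7 to 18.9 RPKM in glia and 15.2 to 23.9 RPKM in GPC and was not called (adjusted p = 0.39). Without GPC replicate 3, which held its lowest value, Ifnar2 was lower in glia (log2 change -0.26, adjusted p = 0.0094).

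Among the transcription factors, Irf9 had the largest change. Irf9, the DNA-binding partner of STAT2, had 14.4, 14.3 and 13.9 RPKM in glia, against 4.69, 4.65, 4.21 and 4.59 RPKM in GPC. Its groups lay far apart with little spread inside each, and its log2 change was 1.56 ± 0.09 (adjusted p = 1.4e-07). Stat2, its partner, was at 11.1 to 12.4 RPKM in glia and 8.29 to 8.46 RPKM in GPC, a log2 change of 0.44 ± 0.07 (adjusted p = 0.000291). Irf1, a factor that interferon gamma induces, was at 9.92 to 10.2 RPKM in glia and 5.37 to 7.56 RPKM in GPC, a log2 change of 0.58 ± 0.12 (adjusted p = 0.00134). Glia stood above GPC without overlap in both genes. Irf2, known to oppose Irf1 at shared sites, went the other way, at 8.95 to 10.0 RPKM in glia and 10.8 to 14.3 RPKM in GPC, a log2 change of -0.42 ± 0.10 (adjusted p = 0.00446). Irf3, which is present before infection and is switched on by phosphorylation, had 21.4, 22.9 and 25.1 RPKM in glia, against 24.6, 21.0, 24.5 and 23.1 RPKM in GPC. These values overlapped and Irf3 was not called (-0.04 ± 0.09, adjusted p = 0.686). Irf8, a factor of myeloid cells, stayed at 0.411 to 0.730 RPKM in all libraries and was not called (adjusted p = 0.851). Irf7, which amplifies type I interferon production, had too few reads for the test, with 38 reads in glia and 23 in GPC. Its values of 0.413 to 0.594 RPKM in glia and 0.104 to 0.379 RPKM in GPC did not overlap.

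The RNA sensors did not move together. Ifih1, which encodes the long double-stranded RNA sensor MDA5, had 1.61, 1.34 and 1.36 RPKM in glia, against 0.499, 0.512, 0.278 and 0.398 RPKM in GPC. Every glia library was above every GPC library, with a log2 change of 1.77 ± 0.21 (adjusted p = 3.05e-05). Ddx58, which encodes the sensor RIG-I, was at 2.29 to 2.68 RPKM in glia and 1.70 to 2.82 RPKM in GPC and was not called (adjusted p = 0.782). Trim25, a ubiquitin ligase of the RIG-I route, had 16 reads in glia and 48 in GPC, too few for the test.

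Gbp2 and Ifit3 had the largest changes of the group, and both carry the ISRE letters printed above. Gbp2, an interferon-induced GTPase that attacks pathogen vacuoles, had 20.9, 19.6 and 19.2 RPKM in glia, against 0.742, 0.826, 0.664 and 0.753 RPKM in GPC. The glia libraries differed among themselves by less than 2 RPKM, all GPC libraries were under 1 RPKM, and the log2 change was 4.71 ± 0.11 (adjusted p = 9.98e-10). Ifit3, a protein of the complex that detects viral RNA, had 5.71, 5.50 and 6.30 RPKM in glia, against 0.147, 0.508, 0.0843 and 0.220 RPKM in GPC. Glia lay far above GPC, where it rested on 14 reads over 4 libraries, and the log2 change was 4.67 ± 0.34 (adjusted p = 8.75e-07). Guanylate-binding protein, Ifit and Ifitm genes have close copies, and the handling of shared reads is not stated in these sources, so the split between copies is uncertain. Ifit2, a related gene, was at 10.5 to 11.7 RPKM in glia and 6.11 to 8.29 RPKM in GPC, a log2 change of 0.56 ± 0.11 (adjusted p = 0.000845). Ifit1, the third of these relatives, was too low for the test, with 0.312, 0.539 and 0.475 RPKM in glia, against 0.0321, 0.0316, 0 and 0.0319 RPKM in GPC. It had 42 reads in glia and 3 in GPC, its RPKM did not overlap, and it was called higher in glia when the filter on low counts was dropped (adjusted p = 2.56e-05).

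Further effectors were higher in glia at lower levels. Xaf1, an interferon-induced promoter of cell death, had 2.35, 1.89 and 1.98 RPKM in glia, against 0.269, 0.281, 0.217 and 0.378 RPKM in GPC. Usp18, a protease that removes ISG15 and damps type I signalling, had 1.25, 1.27 and 1.04 RPKM in glia, against 0.372, 0.302, 0.389 and 0.370 RPKM in GPC. Cxcl10, a chemokine that draws T cells, had 1.70, 1.77 and 1.76 RPKM in glia, against 0.694, 0.611, 0.376 and 0.725 RPKM in GPC. In these genes every glia library was above every GPC library, and the log2 changes were 2.85 ± 0.22 for Xaf1 (adjusted p = 1.28e-06), 1.61 ± 0.23 for Usp18 (adjusted p = 0.000124) and 1.52 ± 0.27 for Cxcl10 (adjusted p = 0.000557). Mx2, an antiviral GTPase, had 1.01, 0.801 and 0.991 RPKM in glia, against 0.172, 0.169, 0.344 and 0.409 RPKM in GPC. Oasl2, a member of the oligoadenylate synthetase family, had 0.352, 0.369 and 0.321 RPKM in glia, against 0.0742, 0.0853, 0.156 and 0.0492 RPKM in GPC. Both were low, yet no glia library overlapped a GPC library, with log2 changes of 1.73 ± 0.30 (adjusted p = 0.000523) and 1.71 ± 0.36 (adjusted p = 0.00172). Ifi35 and Rsad2, an antiviral enzyme also called viperin, overlapped between groups and were not called (adjusted p = 0.256 and 0.141).

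Some effectors were too low to test. Isg15, the ubiquitin-like tag of this response, had 38 reads in glia (0.831 to 1.67 RPKM) and 18 in GPC (0.191 to 0.664 RPKM). Ifitm1 had 32 reads in glia (0.922 to 1.96 RPKM) and 13 in GPC (0.175 to 0.691 RPKM). Neither gene's groups overlapped. With no filter on low counts Isg15 (adjusted p = 0.00984), Ifitm1 (0.00482) and Irf7 (0.0225) were called higher in glia. Mx1, the antiviral GTPase paired with Mx2, had 1, 0 and 5 reads in glia and 0 in each GPC library, so the groups overlapped and nearly all its reads came from glia replicate 3.

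Lower in glia were the IFITM pair, Gbp3 and Parp14. Ifitm2 and Ifitm3 encode membrane proteins that block virus entry and are known to be high in stem and progenitor cells without interferon. Ifitm3 had 55.0, 52.9 and 50.4 RPKM in glia, against 153, 149.9, 53.8 and 135 RPKM in GPC. GPC replicate 3 was close to the glia libraries, while the other GPC libraries were far above them. The log2 change was -1.24 ± 0.35 (adjusted p = 0.0141). It was no longer called without glia replicate 2 (adjusted p = 0.0556) or glia replicate 3 (0.0595), and without GPC replicate 3 it was -1.49 (adjusted p = 2.86e-09). Ifitm2 showed the same picture, with 95.6, 104 and 97.9 RPKM in glia, against 159, 155, 102 and 172 RPKM in GPC. Its glia values overlapped GPC replicate 3 and no other GPC library, and the log2 change was -0.59 ± 0.16 (adjusted p = 0.00704), or -0.74 without that replicate (adjusted p = 6.9e-07). Gbp3, a relative of Gbp2, had 1.71, 1.41 and 1.62 RPKM in glia, against 3.90, 4.97, 3.42 and 4.21 RPKM in GPC. All glia values lay below all GPC values, opposite to Gbp2, with a log2 change of -1.38 ± 0.16 (adjusted p = 3.17e-05). Parp14, an ADP-ribosyltransferase, had 0.0601, 0.0399 and 0.0515 RPKM in glia, against 0.305, 0.242, 0.0520 and 0.361 RPKM in GPC. GPC replicate 3 was inside the glia range for this weakly read gene, which had 17 reads in glia and 95 in GPC. Its log2 change was -2.02 ± 0.66 (adjusted p = 0.0206), or -2.43 without GPC replicate 3 (adjusted p = 1.1e-05). The call was lost without glia replicate 1 (adjusted p = 0.0517), 2 (0.0555) or 3 (0.0697), while it had too few reads for the test without GPC replicate 1, 2 or 4. Bst2, the membrane tether that holds budding virus, was at 2.08 to 5.35 RPKM in glia and 2.38 to 9.22 RPKM in GPC. It was not called (adjusted p = 0.172), but was lower in glia without GPC replicate 3 (log2 change -1.06, adjusted p = 0.00148).

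**Figure D2:**
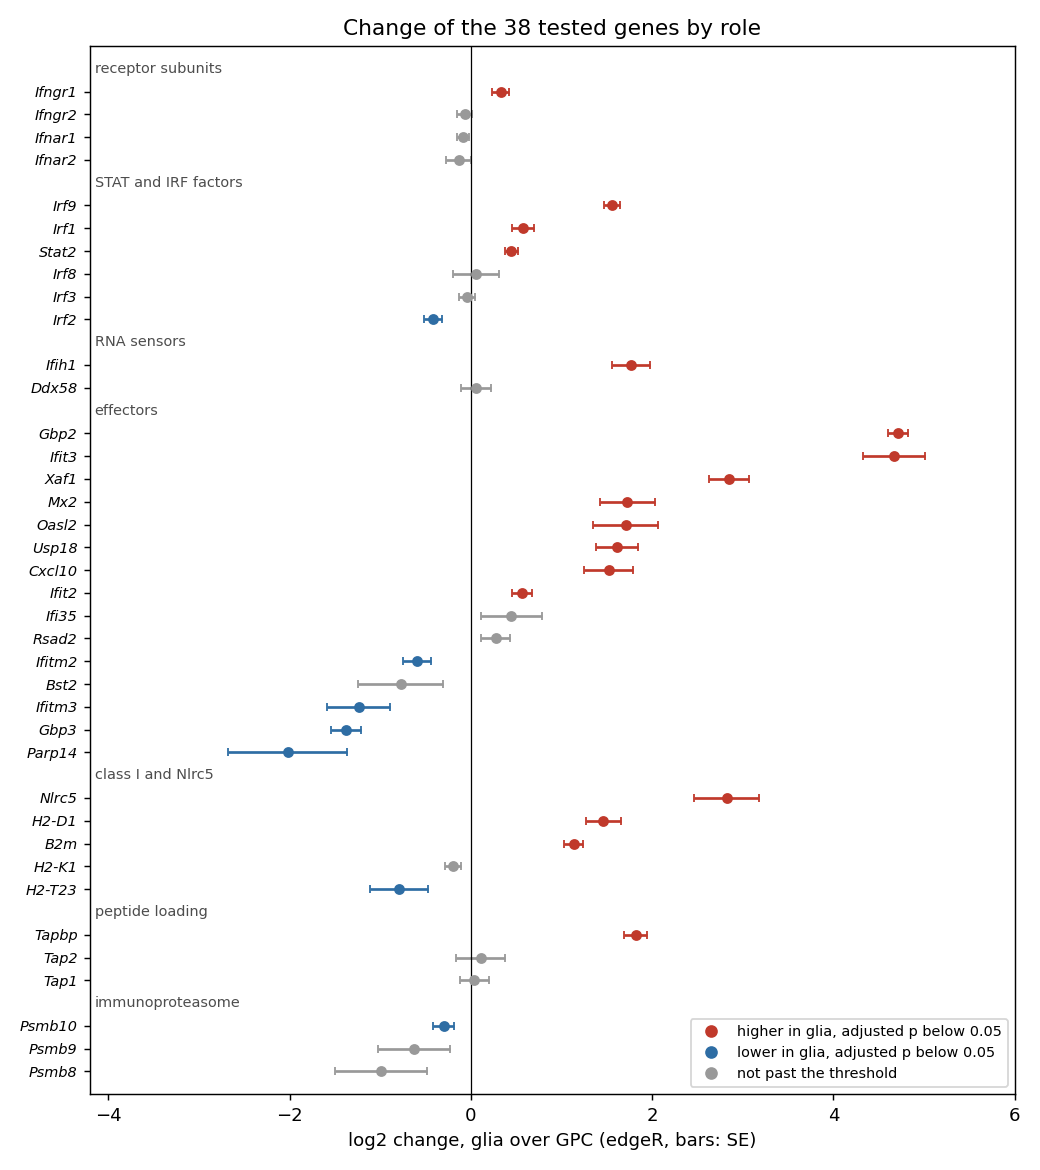
Log2 change of glia over GPC for the 38 tested genes, by role, with bars of 1 SE from the edgeR fit. Gbp2 (4.71) and Ifit3 (4.67) lie farthest right and Parp14 (-2.02) farthest left, while the receptor subunits lie between -0.14 and 0.33.

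RNA of class I genes was present in both groups, and that of the light chain and 1 heavy chain was higher in glia. Protein was not measured. Summed over B2m, H2-K1, H2-D1, H2-T23 and the regulator Nlrc5, the level was 276 to 305 RPKM in glia and 137 to 182 RPKM in GPC. Most of that sum was B2m in both groups. B2m, the light chain shared by all class I molecules, had 197, 227 and 205 RPKM in glia, against 89.2, 99.9, 78.2 and 107 RPKM in GPC. H2-D1, a classical heavy chain, had 34.2, 28.8 and 36.3 RPKM in glia, against 13.4, 13.6, 7.44 and 13.6 RPKM in GPC. Glia stood above GPC without overlap for both, and GPC replicate 3 was the lowest library for both. The log2 changes were 1.13 ± 0.10 for B2m (adjusted p = 3.63e-06) and 1.46 ± 0.20 for H2-D1 (adjusted p = 0.000133), or 1.28 for H2-D1 without that replicate. H2-K1, the other classical heavy chain, had 42.9, 46.3 and 47.9 RPKM in glia, against 48.0, 50.4, 48.2 and 58.8 RPKM in GPC. All its glia values lay just below all its GPC values, a log2 change of -0.20 ± 0.09 that was not called (adjusted p = 0.0589) but was called without GPC replicate 3 (adjusted p = 0.0247) or replicate 1 (0.0473). Mouse class I heavy chains are alike in sequence and differ between strains, so reads may be split among them or lost where the cells' alleles differ from the reference, which was not tested.

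Nlrc5, the transactivator of class I genes, had 0.812, 1.17 and 0.715 RPKM in glia, against 0.107, 0.200, 0.0420 and 0.151 RPKM in GPC. It was low in every library but higher in all glia, with a log2 change of 2.82 ± 0.36 (adjusted p = 5.73e-05). H2-T23, the nonclassical class I molecule Qa-1, was at 0.972 to 1.52 RPKM in glia and 1.16 to 2.74 RPKM in GPC, so the groups overlapped. Its log2 change was -0.79 ± 0.32 (adjusted p = 0.0478), and the call was lost in 6 of the 7 fits that left out 1 library (adjusted p 0.0523 to 0.188) and with DESeq2 (0.1). The 6 libraries were glia replicates 1, 2 and 3 and GPC replicates 2, 3 and 4.

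Of the 3 peptide loading genes in the group, 1 was called. Outside the group, the loading genes Calr and Pdia3 were lower in glia. Their log2 changes were -0.52 ± 0.06 (adjusted p = 4.11e-05) and -0.49 ± 0.06 (adjusted p = 5.67e-05), and Canx and Tapbpl were not called. Tapbp encodes tapasin, which holds empty class I molecules at the peptide transporter, and had 68.0, 70.2 and 72.3 RPKM in glia, against 17.5, 16.9, 25.0 and 18.2 RPKM in GPC. The glia libraries lay close together far above GPC, among which replicate 3 was highest, and the log2 change was 1.82 ± 0.13 (adjusted p = 1.08e-06). Tap1 and Tap2 encode the transporter itself. Tap1 was at 4.38 to 5.58 RPKM in glia and 3.57 to 5.87 RPKM in GPC, and Tap2 was at 3.43 to 4.07 RPKM in glia and 1.76 to 4.31 RPKM in GPC. Both overlapped and were not called (adjusted p = 0.841 and 0.733).

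No subunit of the immunoproteasome, the proteasome form that interferon gamma induces, was called higher in glia. Psmb8, one of its catalytic subunits, had 0.523, 0.355 and 0.282 RPKM in glia, against 0.888, 1.03, 0.290 and 1.04 RPKM in GPC. GPC replicate 3 was as low as the glia, the groups overlapped, and the log2 change of -0.99 ± 0.51 was not called (adjusted p = 0.102). Without GPC replicate 3, Psmb8 (log2 change -1.36, adjusted p = 0.00204) and Psmb9 (-0.86, adjusted p = 0.0375) were lower in glia. With it, Psmb9, at 0.865 to 1.21 RPKM in glia and 0.909 to 2.49 RPKM in GPC, was not called (adjusted p = 0.182). Psmb10, the third subunit, was at 11.4 to 16.0 RPKM in glia and 16.4 to 16.7 RPKM in GPC, a log2 change of -0.30 ± 0.12 (adjusted p = 0.0377). That call was lost without glia replicate 1 (adjusted p = 0.117) or 2 (0.1) and without GPC replicate 1 (0.0598), 2 (0.0637) or 4 (0.066).

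All 7 constitutive proteasome beta subunits were lower in glia, with a median log2 change of -0.47, so each inducible subunit was set beside the one it replaces as a share of its RPKM. Psmb8 stood at 0.675%, 0.629% and 0.332% of Psmb5 in glia, against 0.621%, 0.886%, 0.304% and 0.963% in GPC. Psmb9 stood at 0.597%, 0.705% and 0.709% of Psmb6 in glia, against 0.867%, 0.545%, 0.549% and 1.19% in GPC. Psmb10 stood at 7.12%, 5.86% and 7.98% of Psmb7 in glia, against 5.82%, 5.89%, 7.11% and 5.95% in GPC. In each pair glia and GPC overlapped. The log2 ratio in glia minus that in GPC was -0.28 for Psmb8/Psmb5, -0.16 for Psmb9/Psmb6 and 0.17 for Psmb10/Psmb7. By an exact two-sided permutation test over all 35 ways to assign the libraries to groups, p was 0.629, 0.743 and 0.343 in that order, each 0.743 after adjustment over the 3 pairs. This form of the test doubles the smaller tail, so its smallest p is 0.0571 and no ratio could pass 0.05. It therefore could not have called a difference in any pair.

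**Figure D3:**
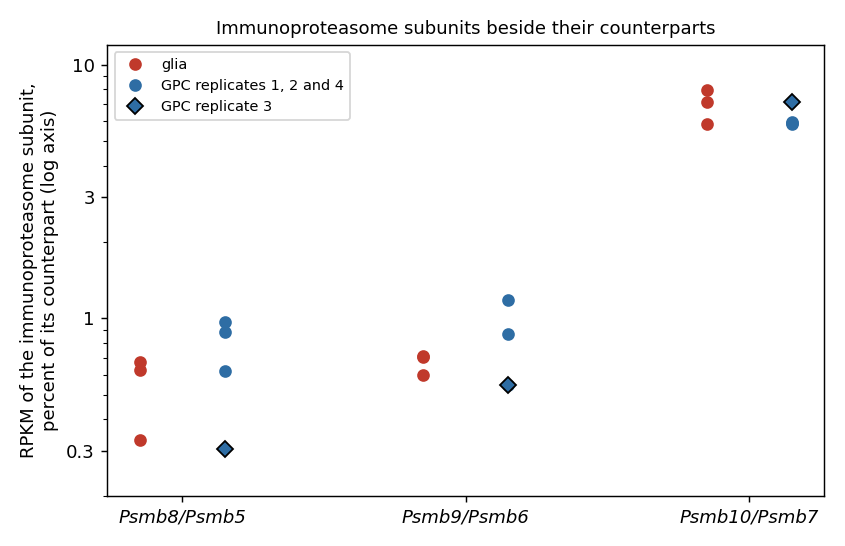
RPKM of each immunoproteasome subunit as a percent of its constitutive counterpart, on a log axis, with 1 point per library, glia left of GPC and GPC replicate 3 as a diamond. Psmb8 and Psmb9 stay between 0.304% and 1.19% of their counterparts in both groups, and Psmb10 between 5.82% and 7.98%.

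Cd74, the invariant chain that guards MHC class II molecules, was barely read. It had 3, 2 and 3 reads in glia and none in any GPC library, too few for the test. Set against a floor of 3 reads over the GPC group, glia stood 3.94-fold higher. That ratio leaves out the counting error of the few glia reads.

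Other genes of the pathway, 162 in 7 lists from general knowledge, were read for comparison, and 83 had enough reads for the test. Of these 34 were higher in glia and 30 lower, with a median log2 change of 0.07. Over all tested genes 35.2% were higher and 35.2% lower, so the share called in these lists was near the background. In what follows, a value with ± in brackets after a gene is its log2 change, glia over GPC, with its SE. Of 19 interferon genes none was tested, since 17 had no read in any library and the others, Ifnk and Ifnz, had 1 read each. Of 16 tested JAK-STAT mediators and inhibitors, 6 were higher and 4 lower. Socs1, an inhibitor of JAK kinases, averaged 2.59 ± 0.715 RPKM in glia and 1.02 ± 0.0562 RPKM in GPC (SD, n = 3 and n = 4, as for the averages that follow), a log2 change of 1.36 ± 0.23 (adjusted p = 0.000361). Jak1, a kinase of both receptors, averaged 51.7 ± 3.71 RPKM in glia and 25.2 ± 1.68 RPKM in GPC (1.01 ± 0.07, adjusted p = 7.77e-07). Ptpn6 (-2.24 ± 0.41), Il10rb (-0.49 ± 0.15) and Ptpn1 (-0.33 ± 0.07) were lower in glia, the first and last being phosphatases that restrain signalling and Il10rb a receptor subunit (adjusted p = 0.000699, 0.0141 and 0.00119).

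Among adaptors and kinases of nucleic acid sensing, 3 of 13 tested were higher and 5 lower in glia. Tmem173, which encodes the DNA sensing adaptor STING, had 1.17, 1.38 and 1.57 RPKM in glia, against 18.3, 17.5, 7.74 and 16.8 RPKM in GPC. GPC replicate 3 was the lowest GPC library but far above all glia, and the log2 change was -3.46 ± 0.36 (adjusted p = 4.31e-05). The gene for the DNA sensor cGAS, listed as E330016A19Rik, averaged 0.298 ± 0.0111 RPKM in glia and 1.47 ± 0.374 RPKM in GPC (-2.31 ± 0.26, adjusted p = 2.27e-05). Traf3, an adaptor, averaged 13.1 ± 0.329 RPKM in glia and 23.97 ± 2.03 RPKM in GPC (-0.90 ± 0.08, adjusted p = 2.74e-06). Irf5 (2.13 ± 0.38), Ikbke (1.54 ± 0.26), a kinase that activates IRF3, and the adaptor Myd88 (0.99 ± 0.17) were higher in glia (adjusted p = 0.000558, 0.000328 and 0.000376).

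Of 27 further interferon-stimulated genes that were tested, 14 were higher and 8 lower in glia, with a median log2 change of 0.41, while 30 had too few reads. Gbp6 and Gbp1, relatives of Gbp2, had larger changes than Gbp2 itself. Gbp6 had 7.35, 8.21 and 6.41 RPKM in glia, against 0.171, 0.168, 0.195 and 0.0848 RPKM in GPC. Gbp1 had 9.53, 10.4 and 9.18 RPKM in glia, against 0.140, 0.193, 0.272 and 0.334 RPKM in GPC. In both, every GPC library was under 1 RPKM and every glia library over 6 RPKM, with log2 changes of 5.39 ± 0.26 (adjusted p = 5.87e-08) and 5.29 ± 0.18 (adjusted p = 7.86e-09). Irgm2, an immunity-related GTPase, averaged 2.50 ± 0.147 RPKM in glia and 0.262 ± 0.0791 RPKM in GPC (3.22 ± 0.20, adjusted p = 3.25e-07). Lower in glia were the chemokine Ccl2 (-1.98 ± 0.35), Ly6e (-1.40 ± 0.09) and the antiviral zinc finger gene Zc3hav1 (-1.23 ± 0.23), with adjusted p of 0.000482, 2.41e-07 and 0.000696.

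A list of other class I loading and class I-like genes gave 6 higher and 4 lower of 12 tested. Those tested include chaperones and proteasome activator subunits. The H2-M3, H2-K2, H2-Q and H2-T genes of the list had few reads or none and were not tested. The largest changes upward were in Fcgrt, the Fc receptor that carries antibodies (3.54 ± 0.28), Hfe, which acts in iron uptake (2.20 ± 0.24), and Psme1, a proteasome activator subunit (0.85 ± 0.08), with adjusted p of 2.36e-06, 1.55e-05 and 5.38e-06. Fcgrt and Hfe are class I-like proteins that show no peptides. Downward they were in the lipid-presenting Cd1d1 (-1.29 ± 0.09), H2-Ke6, an MHC-region gene for a steroid dehydrogenase (-0.56 ± 0.10), and the chaperone Calr (-0.52 ± 0.06), with adjusted p of 4.83e-07, 0.000515 and 4.11e-05. Of 8 tested class II genes 5 were higher and 2 lower. Ciita, the class II transactivator, had 0.339, 0.338 and 0.358 RPKM in glia, against 0.0453, 0.00744, 0.0519 and 0.0600 RPKM in GPC. Glia stood above GPC without overlap at levels under 0.4 RPKM, a log2 change of 2.90 ± 0.33 (adjusted p = 2.21e-05). The lysosomal genes Ctsl (1.82 ± 0.08) and Ifi30 (0.77 ± 0.12) were higher (adjusted p = 3.49e-08 and 0.000179), and the class II chain H2-Ab1 (-0.58 ± 0.19) and the factor Rfxank (-0.20 ± 0.08) were lower (adjusted p = 0.02 and 0.0499).

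**Figure D4:**
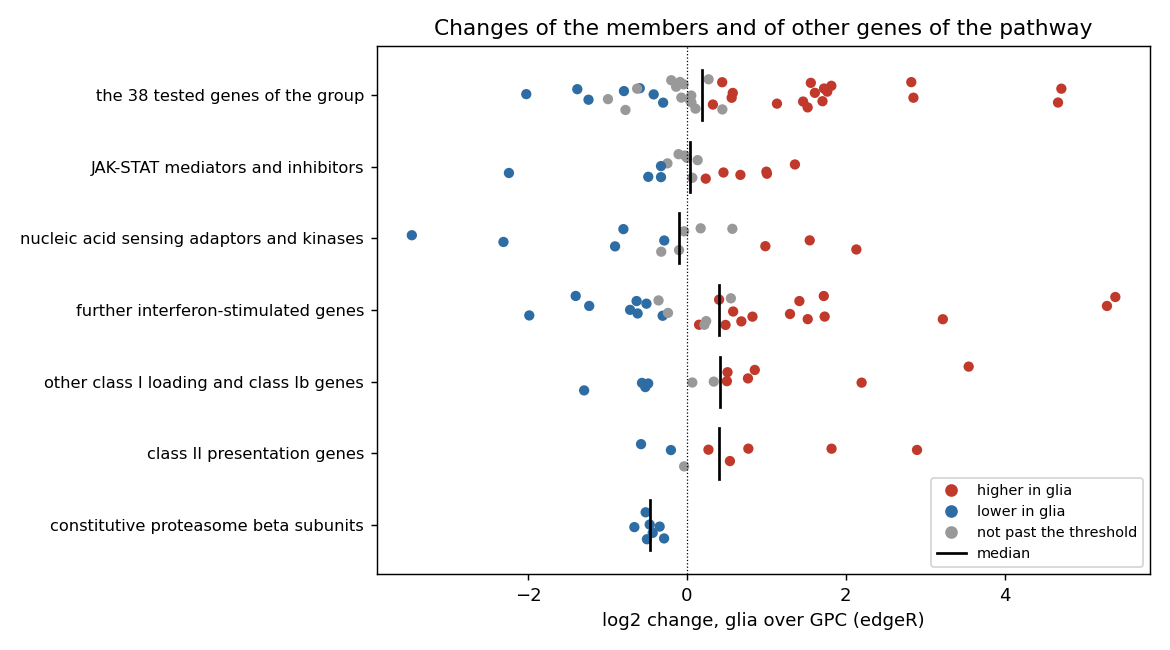
Log2 change of glia over GPC for each tested gene of the group and of 6 other lists of the pathway, with the list median as a bar and colour for the edgeR call. The 7 constitutive proteasome subunits all lie left of 0 (median -0.47), while the other lists hold genes on both sides.

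Markers of immune and vascular cells were measured beside these genes. Of 21 microglia and macrophage markers, 17 were below 0.5 RPKM in every library, and Cx3cr1, Fcrls, C1qa, C1qb, C1qc and Tyrobp had no read at all. Tmem119, also a gene of bone-forming cells, averaged 8.07 ± 0.642 RPKM in glia and 1.74 ± 0.357 RPKM in GPC (2.17 ± 0.16, adjusted p = 9.46e-07). Below 0.5 RPKM in every library were 13 of 14 T, B and NK cell markers, 6 of 8 dendritic cell markers and 7 of 11 endothelial markers. Their sums were 1.18 to 1.40, 9.50 to 10.7 and 2.83 to 4.34 RPKM in glia, and 1.90 to 3.53, 3.69 to 5.08 and 3.38 to 5.55 RPKM in GPC. Among dendritic cell markers Batf3, a transcription factor, was higher in glia (2.76 ± 0.26, adjusted p = 4.9e-06), and Zbtb46 was not called. The T cell kinase gene Lck was lower (-1.29 ± 0.24, adjusted p = 0.000719). Of 4 tested endothelial markers Emcn (-3.10 ± 0.49) and Eng (-2.20 ± 0.39) were lower and Kdr (0.92 ± 0.19) was higher, with adjusted p of 0.000246, 0.000496 and 0.00167, and Flt1 was not called. Of 15 mesenchyme and fibroblast markers 14 were higher in glia, with sums of 2040 to 2338 RPKM in glia and 1376 to 1507 RPKM in GPC. Most of each sum was Vim, the marker that was not called, at 1259 to 1425 RPKM in glia and 1170 to 1319 RPKM in GPC. The sums therefore say little about the other markers. Whether the mesenchymal genes have a part in the changes of the interferon and antigen presentation genes was not tested.

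The ChIP-seq lists from GPC held few peaks that the authors had paired with these genes. SOX3 had 1 such gene of 46 (2.17%), Ifnar2, and SOX9 had 0 of 46, against 4.36% and 8.83% of 22431 symbols of the table. These shares were not tested against each other. The SOX3 peak of Ifnar2 lies at chr16:91334769-91335079 in build mm9, and the authors list it at -38104 bp from the start of the gene. No NFIA peak overlapped it. Within 10 kb of a start site SOX3 had 0 of the 46 genes.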

How the data were processed

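The authors deposited raw read counts per gene, and RPKM values which, per the file headers, were scaled by gene model length and library reads. Per the submitters' processing notes, the build was mm9 and MACS and MACS2 were used. The aligner, the counter and any use of strand are not stated in these sources. Counts were 80.9% to 83.1% of mapped reads. The SOX3 and SOX9 lists were deposited with the authors' paired genes and distances, and NFIA peaks with a score, which was not used. Input and H3K27Ac samples were not analysed here.

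Glia were tested against GPC in R 4.3.3 with edgeR 4.0.16 (TMM, filterByExpr, robust glmQLFit and glmQLFTest, no covariate, Benjamini-Hochberg over 13588 genes, two-sided). The filter leaves out genes with few reads, so weakly read genes enter mostly where 1 group is high. The SE is the size of the log2 change over the square root of F, and the common coefficient of variation was 0.108. RPKM served for levels and, with scipy 1.17.1, for exact permutation tests of 3 ratios. Steps were tested on simulated data. Chi-square per gene between glia pairs was 4.38 to 9.95, so no library was a copy. DESeq2 1.42.0, other scaling, other filters, a replicate block and leaving out each library were alternatives.

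Library values are given for genes called with a 2-fold change, the 8 highest, the largest change of each role and those with a library that stands apart; of each other list up to 3 called genes in each direction, and of marker lists the 2 highest. Values of some genes that this rule names are not reported here. Eng and the label checks, the library values of Tmem173, Gbp6, Gbp1 and Ciita, and genes given by range, were chosen after their values were seen. The genes and lists were chosen with earlier results of these data known. RefSeq promoters (GRCm38.p6) were matched by symbol, and their coordinates are not those of mm9.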

Additional observations from a re-analysis of the deposited data

Results flagged for a closer look

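In 4 of 43 genes examined, 1 GPC library lay far from the other GPC libraries (by Dixon's test of the gap to the nearest library), and each time it was replicate 3. Chance alone would mark about 1 gene in 20. The share of all tested genes marked in this way is not given here, so the flags cannot be called particular to this group. Over all tested genes replicate 3 was the lowest GPC library in 39.3% and the highest in 34.5%. Ifngr1 was at 23.15 RPKM in GPC replicate 3, against 18.4 to 18.8 RPKM in the other GPC libraries. Tapbp was at 24.96 RPKM there, against 16.9 to 18.2 RPKM. H2-D1 was at 7.44 RPKM, against 13.4 to 13.6 RPKM. Ifit1 was at 0 RPKM, against 0.0316 to 0.0321 RPKM, which is 1 read in each of those libraries, so this value rests on counting. The first pair lay towards the glia values and H2-D1 lay away from them.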

How the results depend on the processing

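Of the 38 tested genes, 33 kept their direction in all 12 alternatives in which they were tested and 23 also kept their call. Genes higher in glia numbered 17 to 23 in all settings but a minimum of 50 counts in 3 libraries, which left 11 higher and 4 lower, in part because fewer genes were tested. All 17 were shared by each of the other settings. With no filter 6 more were called, and H2-K1 was called lower (adjusted p = 0.046). Genes lower in glia numbered 3 to 11 when 1 library was left out, with 3 without glia replicate 2 and 11 without GPC replicate 3, of which 6 were among the 7. The cause was not tested.

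Small changes that were not called turned sign when 1 library was left out. They ranged from -0.11 to 0.012 for Irf3, -0.045 to 0.24 for Irf8, -0.096 to 0.13 for Ddx58, -0.075 to 0.14 for Tap1 and -0.13 to 0.24 for Tap2. The log2 ratio Psmb8/Psmb5 ranged from -0.64 to 0.040 and Psmb9/Psmb6 from -0.31 to 0.067.

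With the replicate number as a block, 18 genes were higher and 5 lower, Ifi35 was called (0.70, adjusted p = 0.0416), H2-T23 and Psmb10 were not (0.0674 and 0.06), and Psmb9/Psmb6 was 0.067. Deviations of same-numbered libraries correlated at -0.02, 0.14 and 0.07, and not every library correlated best with its own number. The numbers thus gave no clear sign of pairing, which so few libraries cannot exclude. SOX3 had 0 genes within 10 kb in place of 1. Genes with under about 100 reads are limited by depth.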
